A study of Mus musculus with 11 samples.

Results

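Genes of neural cell adhesion, 6 in number, were the genes that the authors name for 8 windows of 500 bp among the 1239 that the authors listed as differing in captured methylated DNA between light-dark cycles. The genes were Ncam2, Chl1, Cntn3 and Lsamp, which encode adhesion molecules built of immunoglobulin domains, and Ptprd and Ptprt, which encode receptor tyrosine phosphatases with such domains outside the cell. The windows were every row of the 4 deposited tables whose gene name is one of the 6, and the genes were grouped with the values of these tables known, so levels and directions are given as a description, with no test.

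The samples were suprachiasmatic nuclei (SCN), the master circadian clock of the hypothalamus, from wild-type C57BL/6Cr1 mice of postnatal day 90. From 6 weeks of age they lived 6 weeks under light-dark cycles of 22, 26 or 24 h, followed by 3 days of constant darkness, and were sampled at circadian time 4. The SCN, in a 250 µm slice, was divided by knife into a ventral and a dorsal piece, and methylated fragments, sheared to roughly 300 bp, were pulled down with an antibody and sequenced (MeDIP-seq). There were 11 samples in 6 groups: 2 each for ventral 22 h, ventral 26 h, dorsal 22 h, dorsal 26 h and ventral 24 h, and 1 for dorsal 24 h. Each group appears as 1 column of reads scaled to window length and column depth (RPKM), so the spread between mice cannot be seen and the intervals below cover counting error only. The depth recovered from the columns was about 8170000 reads for ventral 22 h, 9430000 for ventral 26 h and 5230000 for ventral 24 h, and 5720000 for dorsal 22 h, 5770000 for dorsal 26 h and 4580000 for dorsal 24 h. In pieces of tissue, a change of methylation within cells and a change in the mix of cells cannot be told apart. The tissue label could not be set against marker genes, because captured DNA carries no expression.

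Immunoglobulin-type adhesion molecules sit on the surface of neurons, bind like or unlike partners on neighbouring cells, and guide axon bundling and the making of synapses. The receptor phosphatases pair a similar outer part with an enzyme inside the cell that removes phosphate from tyrosines, and several of them organise presynaptic terminals. MeDIP reports methylated cytosines, which in most mouse tissues lie mainly in CpG dinucleotides, and most copies of mobile elements in the genome are held methylated.

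The choice by gene name did not use the sequence of the windows. None of the 8 windows lay within 1000 bp of an annotated start site, and 6 of the 8 were made mostly of 31-base words that occur more than once in the mm9 genome, as were 891 of all 1239 listed windows (71.9%). The windows named after Ncam2 and Chl1 in the ventral 22 h list lie on different chromosomes but held the same tandem unit of 214 bases. Over 445 aligned bases the Chl1 and Ncam2 windows were 99.8% identical, with 1 difference. The unit is shown because it is the DNA measured under both names, with CpGs in capitals, on the + strand of mm9 at chr16:81036001-81036214 (Ncam2) and chr6:103531556-103531769 (Chl1). Of its CpGs, 14 were present in both copies.
Ncam2, ventral 22 h list: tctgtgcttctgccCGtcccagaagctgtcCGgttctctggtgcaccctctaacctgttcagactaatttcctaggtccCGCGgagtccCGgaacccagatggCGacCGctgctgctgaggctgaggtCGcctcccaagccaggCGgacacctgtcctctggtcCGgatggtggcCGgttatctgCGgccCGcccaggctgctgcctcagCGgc
Chl1, ventral 22 h list: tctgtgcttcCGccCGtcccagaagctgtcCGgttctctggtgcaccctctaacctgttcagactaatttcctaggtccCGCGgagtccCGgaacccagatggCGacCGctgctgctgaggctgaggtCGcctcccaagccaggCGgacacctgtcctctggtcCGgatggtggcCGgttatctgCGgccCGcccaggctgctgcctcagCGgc

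The Ptprt window of the same list repeated another unit, of 208 bases, at 99.7% of its bases. It is shown to set it beside the first unit, from chr2:162420501-162420708 (mm9, + strand), and holds 13 CpGs.
Ptprt, ventral 22 h list: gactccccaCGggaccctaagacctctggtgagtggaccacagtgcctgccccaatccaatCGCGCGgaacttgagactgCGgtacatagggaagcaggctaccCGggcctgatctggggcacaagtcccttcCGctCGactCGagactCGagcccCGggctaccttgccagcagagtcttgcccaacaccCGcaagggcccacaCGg

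A second pair crossed the lists. The Cntn3 window, listed for ventral 22 h, and the other Ncam2 window, listed for ventral 26 h, aligned over 282 columns at 94.7% identity, with 12 mismatches and 3 gap bases. They are shown because closely alike DNA stood in opposite directions in the 2 comparisons, from chr6:102528632-102528910 (Cntn3) and chr16:81028501-81028782 (Ncam2), mm9, + strand. Of the CpGs, 15 were present in both.
Cntn3, ventral 22 h list: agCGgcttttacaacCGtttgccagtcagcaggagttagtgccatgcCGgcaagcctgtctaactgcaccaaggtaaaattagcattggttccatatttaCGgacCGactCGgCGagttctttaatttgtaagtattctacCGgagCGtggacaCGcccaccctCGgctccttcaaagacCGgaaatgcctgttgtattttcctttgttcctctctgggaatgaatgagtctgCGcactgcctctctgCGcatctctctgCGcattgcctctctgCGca
Ncam2, ventral 26 h list: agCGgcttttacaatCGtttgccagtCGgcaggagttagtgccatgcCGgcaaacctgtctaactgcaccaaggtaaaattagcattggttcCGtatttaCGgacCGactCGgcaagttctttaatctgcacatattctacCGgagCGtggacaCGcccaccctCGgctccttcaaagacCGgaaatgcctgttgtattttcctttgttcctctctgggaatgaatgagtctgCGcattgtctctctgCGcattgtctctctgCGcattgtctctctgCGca

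The remaining 3 windows were poor in CpG. Stretches of 130 bases from the Lsamp window and the other Chl1 window show the contrast with the dense ones. The start of the Lsamp window (chr16:41577501-41577630) held 2 CpGs, and a stretch inside the Chl1 window (chr6:103599161-103599290) held 3. Both are given in mm9, + strand.
Lsamp, dorsal 22 h list: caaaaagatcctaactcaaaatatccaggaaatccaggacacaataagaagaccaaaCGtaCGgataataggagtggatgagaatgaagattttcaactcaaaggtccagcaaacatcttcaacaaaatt
Chl1, ventral 26 h list: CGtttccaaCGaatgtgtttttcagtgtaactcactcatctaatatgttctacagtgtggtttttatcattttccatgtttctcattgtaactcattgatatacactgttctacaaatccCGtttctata

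The ventral 22 h list named 5 of the 6 genes, with 1 window each. In it, 4 of the 5 windows (Ncam2, Chl1, Cntn3 and Ptprt) had more captured DNA at 22 h than at 24 h, and Ptprd had less, where 75.7% of all windows of the list were higher at 22 h and 24.3% lower. The ventral 26 h list named Ncam2 and Chl1, and both windows were lower at 26 h than at 24 h, where 26.7% of the list was lower at 26 h and 73.3% higher. The dorsal 22 h list held 1 window, of Lsamp, higher at 22 h, where 93.1% of the list was higher at 22 h and 6.87% lower. No window of the 6 genes was among the 79 of the dorsal 26 h list, and no window was in more than 1 list. Since every window was selected by the authors on this contrast and the genes were grouped with the values known, nothing is read from these counts.

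**Figure D1:**
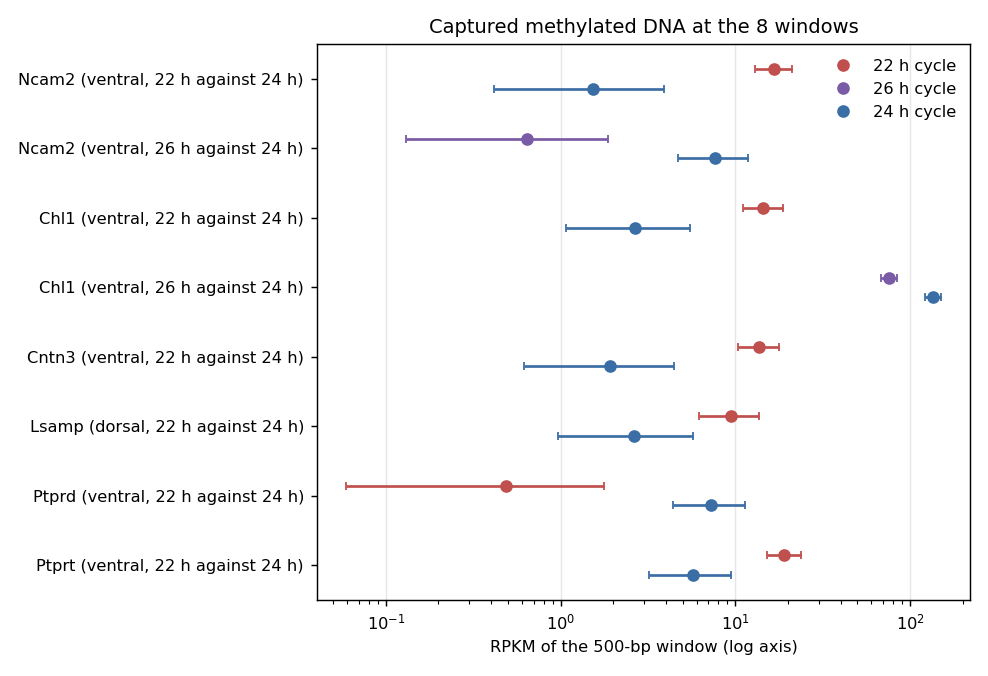
RPKM (log axis) of each of the 8 windows in the 22 h or 26 h column and, below it, in the 24 h column, with exact 95% Poisson intervals that cover counting error only. The Chl1 window of the ventral 26 h list stands far to the right, at 75.9 RPKM at 26 h and 135 at 24 h, and the other 7 windows lie at or below 19.1 RPKM in both columns.

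Ncam2 encodes a neural cell adhesion molecule known from the sorting of olfactory axons. Its window in the ventral 22 h list (chromosome 16, 81036001 to 81036500) stood at 16.7 RPKM in the 22 h column, against 1.53 in the 24 h column, from 68 and 4 reads. The ratio was 10.9 (95% interval 4.06 to 41.1). In the authors' deposited table its log2 fold change, 24 h over 22 h, was -3.38 with an unadjusted p of 6.76e-11. The second Ncam2 window (81028501 to 81029000) lay 7.5 kb away and was listed against 26 h. There the 26 h column held 0.64 RPKM, against 7.65 in the 24 h column, from 3 and 20 reads, 12-fold lower at 26 h (3.57 to 63.2), with a p of 3.62e-05 in the authors' deposited table. Both windows lay upstream of the gene, 165 and 172 kb from its start, and no other gene start was nearer in the annotation. The 24 h column differed between these neighbours too, at 1.53 and 7.65 RPKM, and the cycle length missing at each was not analysed here.

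Chl1, the close homologue of the adhesion molecule L1, also had a window in each ventral list, 67.5 kb apart. The window listed against 22 h (chromosome 6, 103531501 to 103532000) lay in intron 2, 70.9 kb from the start, and read 14.4 RPKM at 22 h, against 2.68 at 24 h, from 59 and 7 reads. The ratio was 5.4 (2.46 to 14). In the annotation a U7 gene started nearer to it, at 6.95 kb. The window listed against 26 h (103599001 to 103599500) overlapped exon 5 of the gene by 17 bases, 138 kb from the start. Its level was 75.9 RPKM in the 26 h column, against 135 in the 24 h column, 1.78-fold lower at 26 h (1.53 to 2.07), and at 24 h it ranked 29 in its list by RPKM. The reads behind these values were 358 at 26 h and 353 at 24 h, nearly equal in number, and the 26 h column was 1.8 times as deep. Here too a U7 start, at 60.6 kb, was nearer than that of Chl1.

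Cntn3 encodes contactin 3, an adhesion molecule anchored to the membrane by a lipid. Its window (chromosome 6, 102528501 to 102529000) lay outside the gene, 114 kb upstream of the start. Its 22 h value was 13.7 RPKM, against 1.91 at 24 h, from 56 and 5 reads, a ratio of 7.17 (2.9 to 22.9). The authors' deposited table gave it a log2 fold change of -2.74, 24 h over 22 h, with p = 3.19e-07.

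Lsamp encodes the limbic system-associated membrane protein, an IgLON adhesion molecule that shapes where axons of limbic regions grow. Its window, the single dorsal one (chromosome 16, 41577501 to 41578000), lay in intron 1, 44.3 kb from the start, within an intron of 355 kb. The dorsal columns gave 9.44 RPKM at 22 h, against 2.62 at 24 h, from 27 and 6 reads, a ratio of 3.6 (1.46 to 10.7). The dorsal 24 h column comes from the group with 1 labelled sample. By RPKM this ratio was below the median of its list, with log2 ratios of 1.85 for Lsamp and 2.0 for the median. The authors' log2 fold change for the Lsamp window, 24 h over 22 h, was larger in size, at -2.40.

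Ptprd and Ptprt, the 2 phosphatase genes, stood in opposite directions in the ventral 22 h list. Ptprd, a presynaptic organiser that binds several postsynaptic partners, stood at 0.49 RPKM at 22 h, against 7.26 at 24 h (chromosome 4, 76640501 to 76641000), from 2 and 19 reads. That was 14.8-fold lower at 22 h (3.58 to 131), with a wide interval at 2 reads. The window lay in an intron of 213 kb, 13.1 kb from the nearest exon of the gene and 1217 kb from the start that the authors give, while the nearest annotated Ptprd start was 401 kb away and that of another gene, AL954675.1, 36.3 kb. Ptprt, a phosphatase that also joins cells by binding its own kind, read 19.1 RPKM at 22 h, against 5.74 at 24 h (chromosome 2, 162420501 to 162421000), from 78 and 15 reads. The ratio was 3.33 (1.9 to 6.23), in intron 1 at 66.1 kb from the start, with 65.5 kb to the nearest exon.

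**Figure D2:**
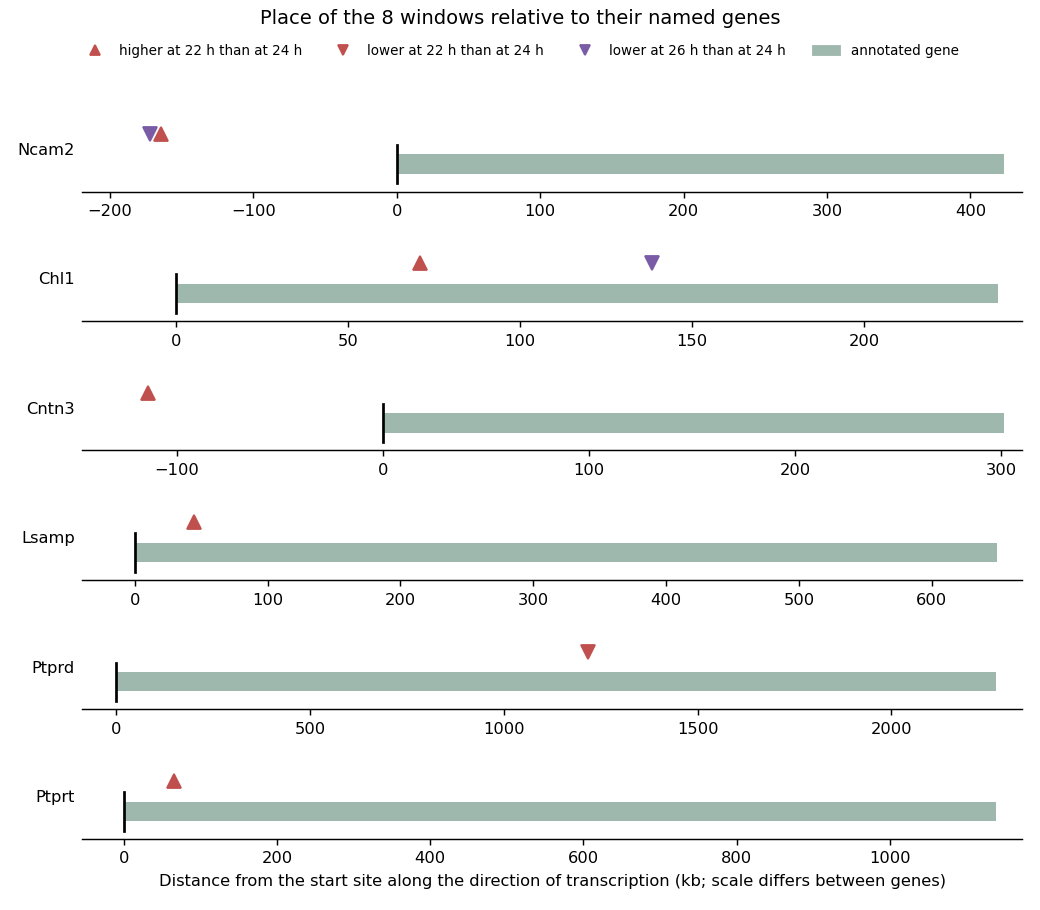
The 8 windows (triangles, pointing up where the 22 h column was higher than the 24 h column and down where the 22 h or 26 h column was lower) along each gene, in kb from its start site, with the annotated gene as a bar. Ncam2 and Cntn3 windows lie upstream of the gene, and the Chl1, Lsamp, Ptprd and Ptprt windows lie inside it, between 44.3 and 1217 kb from the start.

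Of the 8 windows, 5 lay inside the named gene and 3 between genes. The 6 genes are long, between 239 kb (Chl1) and 2271 kb (Ptprd) in the annotation, and hold between 479 and 4542 windows of the same size. Listed windows numbered 1 or 2 a gene, and those of Ncam2 and Cntn3 lay upstream, outside the windows that the genes hold. Their own DNA is mostly single-copy: between 88.4% (Cntn3) and 95.2% (Ncam2) of the windows inside the genes were mostly unique. Of the 8 listed windows 2 were, near the share over all listed windows, 28.1%, which ran from 16% in the ventral 22 h list and 32.1% in the dorsal 22 h list to 58.1% in the ventral 26 h list.

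CpG content split the windows into a dense and a poor class. Ncam2 and Chl1 of the ventral 22 h list held 31 and 36 CpGs, Ptprt 30, and Cntn3 and the Ncam2 window of the 26 h list 27 each. Over all 5116421 complete windows of the genome's grid the median was 3, and 0.448% held at least as many CpGs as the Ncam2 window with 31. Within each gene and 200 kb on either side such density was rare: 1 of 1278 windows around Chl1 (the listed one itself) held at least 36, 4 of 1648 around Ncam2 at least 31, 6 of 3078 around Ptprt at least 30 and 4 of 1403 around Cntn3 at least 27. The Ptprd window held 3 CpGs, and the Lsamp window and the Chl1 window of the 26 h list held 5 each. In the ventral 22 h list as a whole, windows higher at 22 h had a median of 28 CpGs and those lower at 22 h a median of 5, against 27 to 36 for the 4 dense windows and 3 for Ptprd. The Ncam2 window of the 26 h list was one of few of that density in its list: 6 of the 58 windows lower at 26 h (10.3%), and 0 of the 159 higher ones, held 20 CpGs or more.

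**Figure D3:**
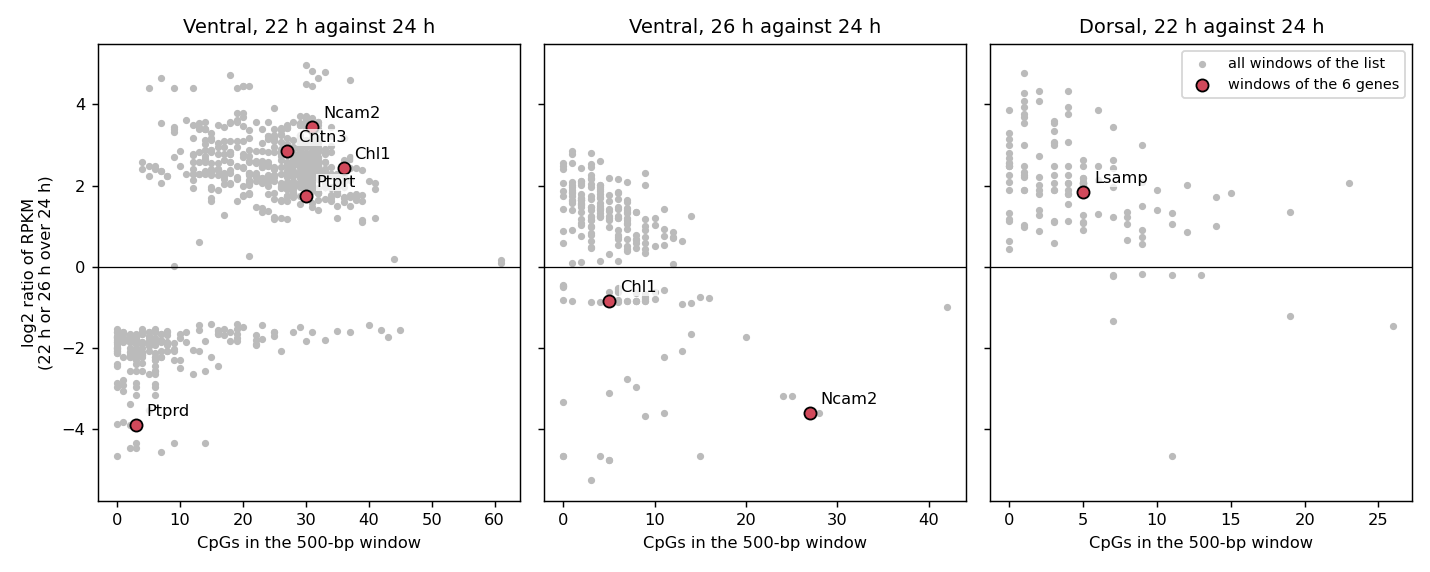
CpGs in each 500-bp window (x axis) against its log2 ratio of RPKM, 22 h or 26 h over 24 h (y axis), for the 3 lists that name one of the 6 genes, with the other windows of the list in grey. In the ventral 22 h list Ncam2, Chl1, Cntn3 and Ptprt lie with the CpG-dense windows above 0 and Ptprd, with 3 CpGs, below 0; Ncam2 with 27 CpGs is below 0 in the ventral 26 h list.

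Copy number followed the same split, with an exception. By the median, a 31-base word of the Ncam2 window of the ventral 22 h list occurred 432 times in the genome. For the Chl1 window of that list the median was 448, for Cntn3 496 and for Ptprt 3052, and for the Ncam2 window of the 26 h list 124. A tandem array holds a word more than once, so these are occurrences of words. Lsamp, poor in CpG, was the exception with 4326. The Ptprd window and the Chl1 window of the 26 h list were mostly unique, with 63.6% and 72.8% of their words found once. Part of the Ptprd window was repeated all the same: it had 2436 other alignments of 100 bases or more in the genome. That Chl1 window had 12. Inside it, 28.8% of 15-base words recurred elsewhere in the window. That share was 20.2% inside the Ptprd window and 93.8% inside the Chl1 window of the ventral 22 h list. Whether this repetition bears on the high RPKM of the Chl1 window of the 26 h list was not tested. Alignments to the genome over at least 450 bases at 90% identity or more, besides that of the window itself, were also counted. They numbered 1056 for Ncam2, 495 for Chl1, 303 for Cntn3, 4602 for Ptprt and 18393 for Lsamp. The Ncam2 window of the 26 h list had 154. Overlapping alignments were not merged, and a tandem array can give several shifted ones, so these are not numbers of separate copies. For such windows the copy from which a read came is often not known, and how the authors placed reads with several matches is not given in the sources used here.

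Reading frames near 6 of the windows were of the kinds that mobile elements carry. Within 8000 bp of the Ncam2, Chl1 and Ptprt windows of the ventral 22 h list lay a frame of at least 600 codons with the reverse transcriptase motif typical of LINE-1 elements, and the longest frame there had 1300 codons at Ncam2 and Ptprt and 950 at Chl1. Tandem units upstream of such a frame are how promoters of young mouse LINE-1 elements are built. On which side or strand of the windows the frames lay was not recorded. The Lsamp window overlapped a frame of 384 codons, with a LINE-1-type frame near it and a longest frame of 1300 codons. The Cntn3 window overlapped a frame of 633 codons, with a frame bearing the motif typical of LTR retrotransposons near it. The Ncam2 window of the 26 h list overlapped a frame of 492 codons, and a LINE-1-type frame lay within 8000 bp of it too. The other Ncam2 window is only 7.5 kb away and had the same longest frame, 1300 codons. Whether 1 frame was counted at both windows was not tested, so this is not a separate case. Its own sequence was alike to that of the Cntn3 window, which had the LTR-type frame. No frame of 600 codons or more lay near the Ptprd window or near the Chl1 window of the 26 h list.

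Other listed windows held the same sequence and were set beside each window, with a match counted over at least 250 bases at 90% identity or more. Alike to the Ncam2 window of the ventral 22 h list were 48 other windows of that list on 14 chromosomes, named after 39 genes, and 48 of 48 were higher at 22 h, with a median ratio of 5.8 and a lowest of 3.5. The Ncam2 ratio of 10.9 was above that median. The 48 windows alike to the Chl1 window were the same ones, except that each set held the other of the 2 windows. The Chl1 ratio of 5.4 was below their median of 5.85. Alike to the Ptprt window were 237 windows, 237 of them higher at 22 h, with a median ratio of 5.44 (columns with 0 reads set to 3) above the 3.33 at Ptprt. Alike to the Cntn3 window were 38, also all higher at 22 h, with a median of 5. In all, 327 of the 615 windows higher at 22 h (53.2%) were alike to at least 1 of the 8 windows or were one of them, against 17 of the 197 lower ones (8.63%). Windows alike in sequence can share reads, so their number is not a number of separate events, and the names Ncam2, Chl1, Cntn3 and Ptprt each stand for one place among many with that sequence.

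For 4 of the windows alike sequence was listed in the other direction elsewhere: Lsamp, Ptprt, and the pair of Cntn3 and the Ncam2 window of the 26 h list. With 95% identity asked for, the single matches of this kind at Cntn3 and Ptprt fell away, and those of Lsamp (10 windows) and of the Ncam2 window (4 windows) were left. The Lsamp window, higher at dorsal 22 h, had 9 alike windows in the dorsal 22 h list, with medians of 7.34 RPKM at 22 h, against 1.75 at 24 h, all higher at 22 h. In the ventral 22 h list 16 windows were alike to it, and 16 of 16 were lower at 22 h, with medians of 1.84 RPKM at 22 h, against 8.6 at 24 h, where 24.3% of the list was lower. The ventral and dorsal lists come from separate columns, and a difference between the parts was not tested. The Ncam2 window of the ventral 26 h list, lower at 26 h, had 20 alike windows in the ventral 22 h list, all higher at 22 h, with 10.8 to 18.1 RPKM at 22 h and 1.15 to 4.97 at 24 h. Its own 24 h level of 7.65 RPKM was above that range, and the 20 windows were themselves selected against the same 24 h column. Alike to the Ptprt window were 1 window of the ventral 26 h list, with 0 RPKM at 26 h, against 5.74 at 24 h, and 2 of the dorsal 26 h list, both higher at 26 h with ratios of 8.34 and 15.1. No other window of any list was alike to the Ptprd window or to the Chl1 window of the 26 h list.

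**Figure D4:**
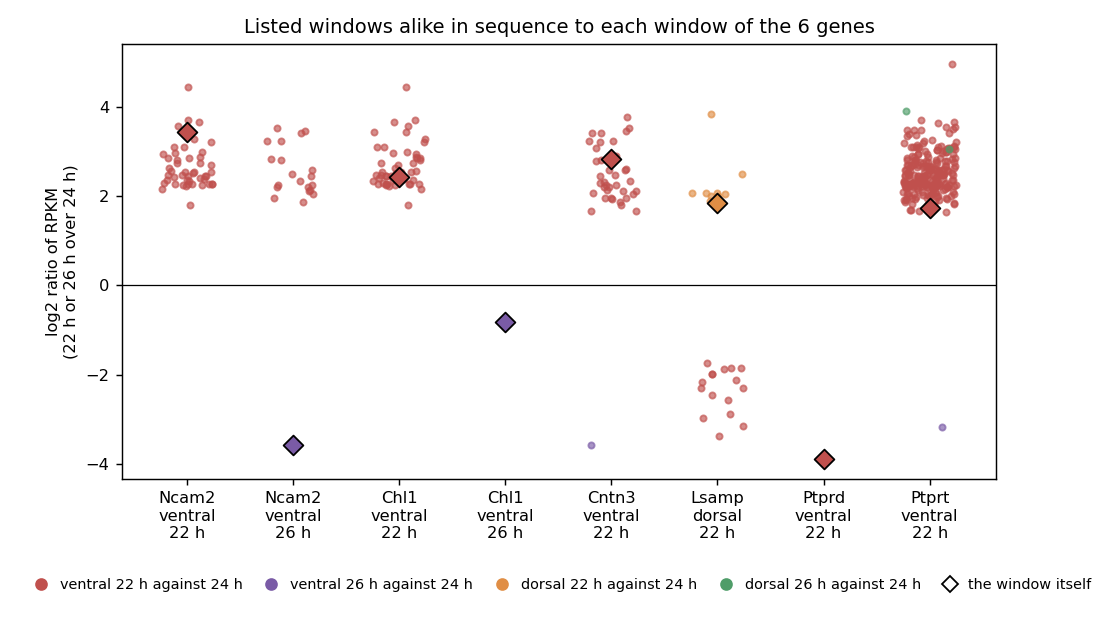
Log2 ratio of RPKM, 22 h or 26 h over 24 h, for each of the 8 windows (diamonds) and for the other listed windows that align to it over at least 250 bases at 90% identity or more (dots, coloured by list). The dots of Ncam2, Chl1 and Cntn3 in the ventral 22 h list are all above 0, and those of Lsamp are above 0 in the dorsal list and below 0 in the ventral one.

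A wider list of 79 symbols, 74 of them annotated, for immunoglobulin-type adhesion and receptor phosphatase genes, chosen with earlier results known, gave few further windows. The ventral 22 h list named 9 of the 74, and 501 of all 22238 protein-coding genes of the annotation (2.25%), but 5 of the 9 are genes chosen above because they were listed, which leaves 4 of 68. The 9 genes had 10 windows, 6 higher and 4 lower at 22 h, where 75.7% of the list was higher, with a median log2 ratio of 2.08 against 2.25 over the list. Besides the genes above, these were Ptprz1, a phosphatase of glia and their precursors, Ptprb, the phosphatase of blood vessel walls, Sdk1, an adhesion molecule that matches synaptic layers in the retina, and Pvrl1, a nectin. Ptprz1 had 2 adjoining windows, one at 17.4 RPKM at 22 h, against 2.68 at 24 h, and the next at 13.5 RPKM at 22 h, against 1.91 at 24 h, 230 and 229 kb from the start, with 32 and 25 CpGs. Both were among the windows alike in sequence to the Ptprt window. At 22 h Ptprb held 1.22 RPKM, against 7.26 at 24 h, Sdk1 1.96, against 8.41, and Pvrl1 4.16, against 13.8, with 2 or 3 CpGs each. The ventral 26 h list added Mdga2, which holds back synapse formation, at 57.5 RPKM at 26 h, against 102 at 24 h. Its reads were 271 at 26 h and 267 at 24 h, nearly equal in number as at the Chl1 window of that list, and the median log2 ratio of the 3 windows there was -0.83 against 1.07 over the list. The dorsal 22 h list named Lsamp alone of the 74, and the dorsal 26 h list named 0. These lists are short: of all protein-coding genes they named 0.247% and 0.189%, and the ventral 26 h list 0.225%. No difference between the parts is read from these counts.

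Patterns most like those of the 6 genes were sought over the 4 lists, by the number of lists in which a gene had the same state and then by the difference in log2 ratio. Lrrc4c, which encodes a synaptic adhesion molecule of the leucine-rich repeat type, matched Ncam2 and Chl1 in 4 of 4 lists. It was listed with them in 2, the ventral ones, and the match in the dorsal lists was that none was listed. Its mean log2 ratios were 3.24 at ventral 22 h and -0.83 at ventral 26 h. The Lrrc4c window of ventral 22 h was among those alike in sequence to the Ptprt window. Chl1 had 2.43 and -0.83 there, and Ncam2 3.44 and -3.59. The other 4 genes were each in 1 list, so likeness was a matter of 1 value, the mean log2 ratio over a gene's windows in that list: Rprm (mean of 3.21 and 2.47, 2.84) was nearest Cntn3 (2.84), Mir153 (mean of -3.81 and -3.89, -3.85) nearest Ptprd (-3.89), 1700030N03Rik and Crygf (1.73 each) nearest Ptprt (1.74), and 4930430F21Rik, 4930550L24Rik and Cxcl2 (1.90 each) nearest Lsamp (1.85). The values of 4930430F21Rik and 4930550L24Rik rest on 0 reads at 24 h, set to 3. The Cxcl2 window was among those alike in sequence to the Lsamp window. Both Rprm windows were among those alike in sequence to the Ncam2 and Chl1 windows of ventral 22 h. The 2 ventral comparisons share their 24 h column, so the states of a gene in them are not independent.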

How the data were processed

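MeDIP-seq was deposited as 4 lists of 500-bp windows. The submitters' processing notes name BWA and build mm9; the alignment of reads with several matches and the merging of duplicate samples are not given in the sources used here. Per the file headers, the authors gave RPKM per column, a log2 fold change and log2 abundance from edgeR, an unadjusted p-value, and a column named counts. The deposited counts column is a score, rescaled in each file and not proportional to reads. The 16 columns of means, which repeat the single columns, were not used. In one file 3 repeated rows were dropped.

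Reads were recovered from RPKM, whose distinct values were all whole multiples of 1 step per column within 0.01 RPKM; the step gave the depth. Ratios of RPKM carry exact 95% Clopper-Pearson intervals and levels exact Poisson intervals, for counting error only; a column with 0 reads was set to 3, which applied to 80 listed windows, none of the 6 genes, and enters the medians, the likeness and the plotted ratios. Step recovery, intervals and word counts were tested on simulated data. Windows were placed on GENCODE M1 (NCBIM37, which is mm9). Words of 31 bases on both strands were counted over the whole genome, and mostly unique means that 50% or more of a window's words occurred once. BLAST 2.17.0 aligned windows to each other and to the genome. Software was matplotlib 3.10.9, pysam 0.24.0, Biopython 1.88, numba 0.67.0, scipy 1.17.1, pandas 2.3.3, numpy 2.4.6 and Python 3.11.15. The 6 genes and the wider gene list were chosen with earlier results of these data known. Named were every window of the 6 genes, every listed gene of the wider list and up to 3 genes of like pattern for each, of which the nearest and its ties are given. Each group had 1 column, so no test was run on the authors' selected windows and a replicate could not be left out. A sequence of the Ptprd window is not reported here.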

Additional observations from a re-analysis of the deposited data

How the results depend on the processing

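No paired analysis was possible because each group appears as 1 column and the columns carry no replicate number; for the same reason no replicate could be left out. Under the settings chosen at the start, 52 values kept their direction and stayed within their interval or within 1.5 times the count, 17 moved further and 3 changed sign. Adding 0.5 reads, the authors' log2 fold change, their counts column and merging neighbours moved no value past those limits. With the authors' p at 1e-06 or less, the ventral 26 h list kept 1 window of the 6 genes, the dorsal 22 h list 0, and the wider gene list 6 in ventral 22 h and 0 in dorsal 22 h. Windows inside the named gene numbered 3 in ventral 22 h and 1 in ventral 26 h. Mostly unique windows numbered 1, 1 and 0 in ventral 22 h, ventral 26 h and dorsal 22 h, and 4 and 0 for the wider list in ventral 22 h and dorsal 22 h. Without scaling to depth, the log2 ratio of the Chl1 window at ventral 26 h was 0.020, with the sign turned, so 1 of the 2 windows was then higher at 26 h. Centring on the median of the list moved the log2 ratio to 1.19 for Ncam2, 0.18 for Chl1 and 0.59 for Cntn3 at ventral 22 h, to -1.9 for Chl1 at ventral 26 h, and past 0 to -0.51 for Ptprt and -0.15 for Lsamp, so that 0 dorsal windows were then higher. Identity limits of 80% and 95% for alike sequence were added after the data were seen; 10 of these 22 counts moved by over 1.5 times: at 80% the alike windows numbered 89 for Ncam2 and for Chl1 of ventral 22 h and, for Ncam2 of ventral 26 h, 48 in ventral 22 h and 1 in dorsal 22 h. At 95% they fell to 24 for Cntn3, to 4 for Ncam2 of ventral 26 h, to 2 in dorsal 22 h and 10 in ventral 22 h for Lsamp, and to 0 in ventral 26 h for Cntn3 and for Ptprt. Depth limits the ratios at Ptprd and at the Ncam2 window of ventral 26 h, with 2 and 3 reads in the lower column.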
